A study of Homo sapiens with 6 samples.

Results

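The transcripts of 10 genes around 3β-hydroxysteroid dehydrogenase, androgen conversion and the sulfation of dehydroepiandrosterone (DHEA) were followed in human adrenocortical cells after 8-Br-cAMP. The genes are HSD3B1, HSD3B2, SULT2A1, PAPSS1, PAPSS2, AKR1C3, HSD17B4, SRD5A1, CYP19A1 and H6PD. They were chosen by symbol: every probe set whose platform annotation gives 1 of these symbols and no other was used, which gave 16 probe sets of 22215 and 10 genes of 11963 with such an annotation. The cells were NCI-H295A, an established adrenocortical carcinoma line that grows attached and makes steroids, kept in medium with 2% serum and insulin. All 6 samples were of this line, and the compared groups were 3 plates left untreated and 3 plates exposed during 18 h to 8-Br-cAMP, a cell-permeable cAMP analogue, at 1 mM. Total RNA was measured on Affymetrix oligonucleotide arrays, 1 array per plate, numbered 1 to 3 in each group. The series' design text states separate experiments but gives no pairing of plates between the groups. Each p-value covers just the spread among these plates. Precision is limited by the small number of arrays. As a single tumour-derived line, the cells carry that tumour's own adrenal gene activity.

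In the adrenal cortex, ACTH raises cAMP, and pregnenolone made from cholesterol is either converted by 3β-hydroxysteroid dehydrogenase towards progesterone, cortisol and androstenedione, or turned by P450c17 into DHEA. DHEA that is not converted is sulfated by the sulfotransferase SULT2A1, which needs the activated sulfate donor PAPS made by the PAPS synthases PAPSS1 and PAPSS2. Further enzymes outside this branch point interconvert active and inactive androgens, reduce testosterone to dihydrotestosterone, aromatise androgens to oestrogens, or supply NADPH inside the endoplasmic reticulum.

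Promoter sequences of 4 of the genes are shown because the array data compare these genes within a cAMP treatment and 2 of them, HSD3B1 and HSD3B2, are close relatives. Each is the RefSeq window on GRCh38.p14 from 250 bases before to 50 bases after an annotated start, read 5′ to 3′ on the gene's strand, and the most downstream start was taken where several are annotated. Capitals mark matches on either strand to 5 motifs: the cAMP response element TGACGTCA, its core TGACG (also contained in the full element), the nuclear receptor site AAGGTCA, the GC box GGGCGG and the TATA box TATAAA.
HSD3B2, chr1:119414681-119414980, plus strand: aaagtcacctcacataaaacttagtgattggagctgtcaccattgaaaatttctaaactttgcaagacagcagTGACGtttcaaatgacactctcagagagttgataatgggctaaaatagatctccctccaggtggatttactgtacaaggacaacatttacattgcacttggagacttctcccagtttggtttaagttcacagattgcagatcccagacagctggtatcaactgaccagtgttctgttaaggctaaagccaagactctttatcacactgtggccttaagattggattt
HSD3B1, chr1:119506960-119507259, plus strand: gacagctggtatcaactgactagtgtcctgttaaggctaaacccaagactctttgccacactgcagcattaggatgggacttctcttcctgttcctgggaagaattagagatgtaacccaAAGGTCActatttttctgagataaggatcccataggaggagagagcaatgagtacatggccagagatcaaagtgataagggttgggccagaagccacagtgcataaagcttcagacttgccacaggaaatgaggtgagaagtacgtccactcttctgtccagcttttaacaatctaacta
PAPSS1, chr4:107720185-107720484, minus strand: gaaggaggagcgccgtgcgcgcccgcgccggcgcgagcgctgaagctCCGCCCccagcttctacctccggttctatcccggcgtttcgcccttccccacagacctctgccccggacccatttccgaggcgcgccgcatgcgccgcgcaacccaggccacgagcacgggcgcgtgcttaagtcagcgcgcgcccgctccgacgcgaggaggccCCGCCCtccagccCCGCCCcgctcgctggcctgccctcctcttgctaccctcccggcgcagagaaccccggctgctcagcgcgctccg
CYP19A1, chr15:51242980-51243279, minus strand: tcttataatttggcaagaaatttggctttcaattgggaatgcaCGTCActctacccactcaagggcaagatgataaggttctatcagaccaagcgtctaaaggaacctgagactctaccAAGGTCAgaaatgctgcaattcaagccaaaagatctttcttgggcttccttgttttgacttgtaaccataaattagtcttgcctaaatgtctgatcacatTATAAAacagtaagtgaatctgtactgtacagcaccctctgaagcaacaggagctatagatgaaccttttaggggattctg

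Windows were found for 9 of the 10 genes, all but PAPSS2, with 17 windows in all and 7 for CYP19A1. The full element TGACGTCA was in 0 of these 17 windows and in 1.85% of all 35116 windows of the same length. The core TGACG was in 4 of the 17 windows and in 24.6% of all windows. The 4 came from 3 genes, HSD3B2 (177 bases before the start), CYP19A1 and H6PD. The CYP19A1 windows that hold the core overlap, and the same site is counted in each of them. AAGGTCA was in 4 of the 17 windows (from HSD3B1, CYP19A1 and H6PD) and in 3.92% of all windows. Here too the HSD3B1 windows overlap, and the same site is counted in each of them, so the windows are not separate. In the CYP19A1 window shown, the core lies 207 bases, the nuclear receptor site 131 bases and the TATA box 31 bases before the start. The GC box was in 5 of the 17 windows, from 4 genes (PAPSS1, HSD17B4, SRD5A1 and CYP19A1), and in 45.0% of all windows. The TATA box was in 3 of the 17 windows, from AKR1C3 and CYP19A1, and in 11.5% of all. The windows of PAPSS1 and SRD5A1 were rich in G and C (74.7% and 71%, against a median of 58.7% over all windows), while that of HSD3B2 held 40.7%. The end of the HSD3B2 window and the beginning of the HSD3B1 window overlap without gaps over 82 bases with 71 identical (86.6%), including a run of 20 shared bases, gacagctggtatcaactgac, that begins 32 bases before the annotated HSD3B2 start and 250 bases before the HSD3B1 start. The AAGGTCA site of HSD3B1 lies beyond these 82 bases, so the matching stretch of HSD3B2 is outside its window and was not searched. A match is a description of the letters and not of a bound site.

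The arrays numbered 1 stood apart in both groups. Their actin control 3′/5′ signal ratios, a sign of RNA integrity, were 5.72 in the control and 38.8 in the treated sample, and 1.93 to 2.41 elsewhere, and log2 signals correlated at 0.961 between controls 2 and 3, 0.980 between 8-Br-cAMP 2 and 3, and 0.776 to 0.833 between a number 1 array and the others of its group. Results are therefore given over all arrays and without both number 1 arrays. Adrenocortical identity was checked on 9 markers: 7 were on the array and all 7 were above the filter level by their mean over the arrays, among them NR5A1, CYP11A1, CYP17A1 and STAR, while MRAP and NR0B1 are not analysed here. MC2R, also among the 7, lay near that level, at 91.9, 46 and 47.9 in controls and 21.1, 54.7 and 45 after 8-Br-cAMP. Of the markers of other cells, 1 of 5 for chromaffin cells, 2 of 6 for fibroblasts, 2 of 5 for endothelium and 1 of 4 for leukocytes were above that level. The summed endothelial signal was 183 to 231 in controls and 305 to 419 after 8-Br-cAMP, and PECAM1 differed by -0.02 on the log2 scale. VWF read 13.2, 17.8 and 123.8 in controls, under the filter level on controls 1 and 2, and 292.3, 224.5 and 289.2 after 8-Br-cAMP. It differed by 3.12 on the log2 scale and passed limma with the array number as a block (adjusted p = 0.0493), but not limma without the block (0.212). The part of these markers in the results below was not tested.

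Of the 16 probe sets, 14 passed the filter on low signals (mean log2 signal above 5.51, a signal of 45.5), with at least 1 for each gene. Without a block, limma called 0 of these 14 and 0 of all 13329 tested probe sets (0%) at an adjusted p under 0.05. An unadjusted p under 0.05 was reached by 5 of the 14, against 11.1% of all. With the array number as a block, called the paired fit here, 2 of the 14 passed, against 3.21% of all tested probe sets: PAPSS2 rose and AKR1C3 fell. Higher calls were 1.55% and lower calls 1.66% of the tested probe sets. In this fit 8 of the 14 had an unadjusted p under 0.05, against 21.3% of all. The direction was the same in all 3 pairs for 8 of the 14, against 44.1% of all probe sets, and the groups did not overlap for 5 of the 14, against 18.5%. The array numbers were taken as pairs from the data, which part number 1 from numbers 2 and 3 more clearly than 2 from 3. A block for that coarser split called 5 of the 14, 2 higher and 3 lower, against 9.71% of all (3.83% higher, 5.87% lower), PAPSS2 203060_s_at and AKR1C3 among them. On arrays 2 and 3 alone, 8 of the 14 passed limma without a block, 4 higher and 4 lower, against 30.8% of all (12.1% higher, 18.7% lower). Those p-values rest on closely alike arrays whose spread may understate that between separate experiments. Unless another fit is named, each adjusted p below is that of limma's paired fit with Benjamini-Hochberg adjustment over 13329 probe sets, and log2 differences are 8-Br-cAMP minus control.

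**Figure D1:**
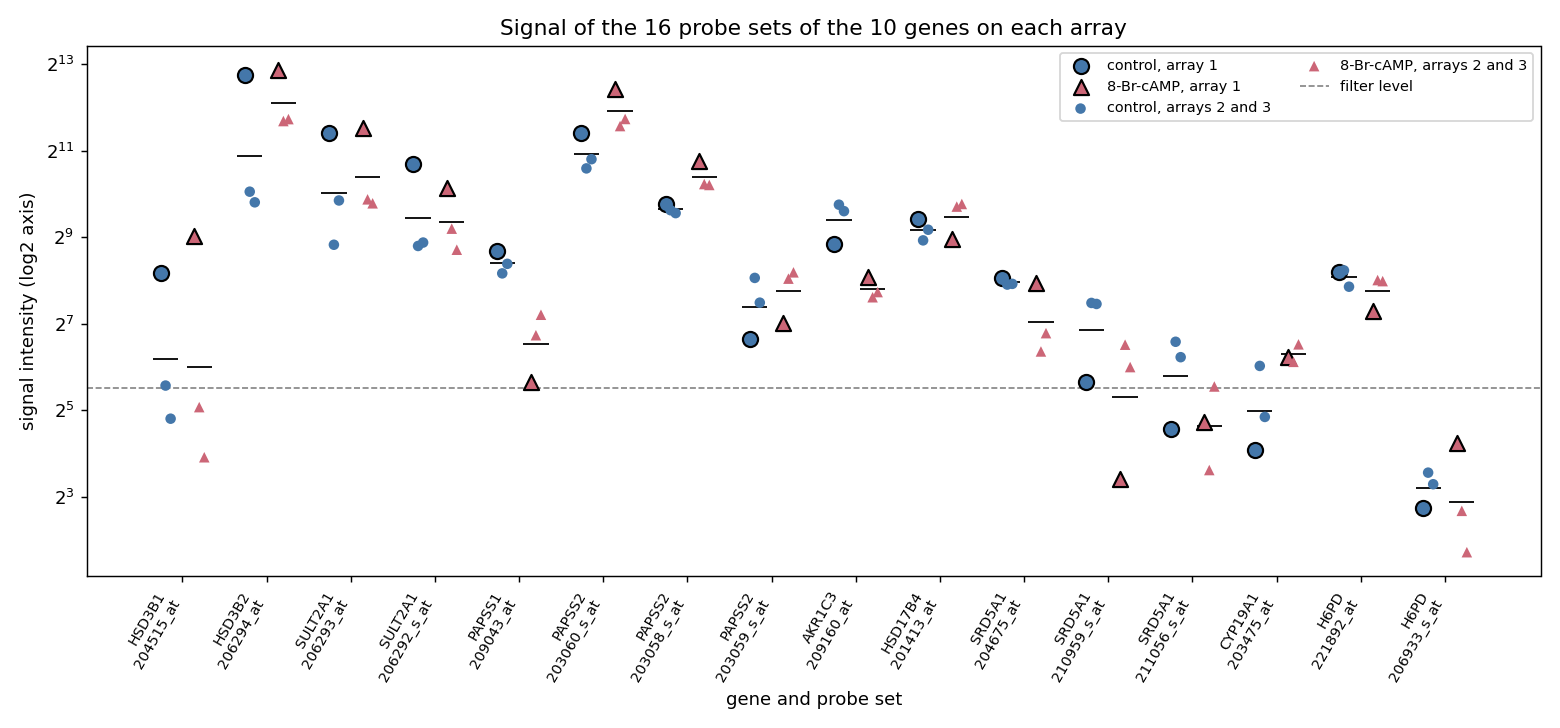
Signal intensity (log2 axis) of the 16 probe sets of the 10 genes on each of the 6 arrays, controls as circles and 8-Br-cAMP as triangles, with the number 1 arrays outlined, a bar at the mean of log2 signals and a dashed line at the filter level of 45.5. HSD3B1, HSD3B2 and SULT2A1 had their highest signals on the number 1 arrays, and the groups of PAPSS1, AKR1C3 and the upper PAPSS2 probe sets do not overlap.

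HSD3B2 encodes the 3β-hydroxysteroid dehydrogenase of adrenal and gonad, which moves steroids from the Δ5 to the Δ4 pathway. Its signals were 6937.9, 1062.6 and 895.9 on controls 1, 2 and 3, and 7455.8, 3293.1 and 3397.5 on the 8-Br-cAMP arrays of the same numbers. Control 1 lay above 8-Br-cAMP 2 and 3, so the groups overlapped, although the signal was higher after 8-Br-cAMP in each of the 3 pairs. The log2 signal was 10.87 ± 1.64 (SD, n = 3) in controls and 12.09 ± 0.67 after treatment, a difference of 1.22 (SE 0.35, 95% interval 0.38 to 2.06, 2.33-fold) that did not pass (adjusted p = 0.119). Pair 1 differed by 0.10, and pairs 2 and 3 by 1.63 and 1.92. Without both number 1 arrays the difference was 1.78 (adjusted p = 3.15e-05, limma without block), so the call depends on them.

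HSD3B1 encodes the 3β-hydroxysteroid dehydrogenase best known from placenta and peripheral tissues. Its signals were 290.4, 47.6 and 28 on controls 1 to 3 and 518.6, 33.7 and 15.1 after 8-Br-cAMP. They lay well above the filter level on the number 1 arrays only, and near or under it on the other 4. The log2 difference was -0.18 (95% interval -1.21 to 0.85, adjusted p = 0.845), and it took both signs: 0.84 in pair 1, -0.50 in pair 2 and -0.89 in pair 3. Its sign also turned with quantile scaling (0.12) and with a common median (0.041). In both genes the number 1 array stood above the mean of arrays 2 and 3, in HSD3B1 by 2.99 on the log2 scale in controls and 4.52 after 8-Br-cAMP, and in HSD3B2 by 2.83 and 1.16. The genes are close relatives, and how far each probe set reads the other's transcript was not tested.

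SULT2A1 encodes the hydroxysteroid sulfotransferase that turns DHEA into DHEA sulfate. Its brighter probe set, 206293_at, read 2729.8, 454.1 and 922.9 in controls and 2941.5, 939.9 and 881.9 after 8-Br-cAMP. The other, 206292_s_at, read 1649.7, 445.3 and 470.4, and 1120.7, 587.6 and 419.4. In both, the spread between number 1 and the other arrays of a group was wider than the difference between groups. The log2 differences were 0.36 (95% interval -0.26 to 0.99, adjusted p = 0.470) and -0.11 (-0.68 to 0.47, adjusted p = 0.837), and neither passed without the number 1 arrays (0.49, adjusted p = 0.217, and 0.12, adjusted p = 0.631, limma without block). The sign of the first turned on the spike-in scale (-0.0076) and that of the second with a common median (0.12). No change in the SULT2A1 transcript was detectable with this spread, and the intervals still allow a rise of 0.99 on the log2 scale.

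PAPSS2 encodes the PAPS synthase that supplies sulfate for DHEA sulfation. Its brightest probe set, 203060_s_at, read 2702.8, 1542.8 and 1787.7 in controls and 5503.4, 3039.3 and 3404.5 after 8-Br-cAMP. All 3 treated signals exceeded all control signals, and the pairs were alike, with log2 differences of 1.03, 0.98 and 0.93. It rose by 0.98 (SE 0.17, 95% interval 0.58 to 1.38, 1.97-fold, adjusted p = 0.0368). Its log2 signal was 10.93 ± 0.42 in controls and 11.91 ± 0.45 after treatment (SD, n = 3). Without the block the adjusted p was 0.327. The second probe set, 203058_s_at, read 873.8, 789.3 and 753.7 against 1740, 1200.5 and 1182.9, without overlap, and differed by 0.75 (adjusted p = 0.0900). The third, 203059_s_at, the dimmest of the 3, read 99.7, 267 and 179.6 against 130.7, 263.9 and 291.9, overlapped and differed by 0.36 (-0.22 to 0.94, adjusted p = 0.446), a difference whose sign turned on the spike-in scale (-0.013). The call of 203060_s_at was lost with pair 2 left out (adjusted p = 0.146) and with pair 3 left out (0.215), while its log2 difference stayed between 0.95 and 1.0 whichever pair was left out. With all pairs it was also lost with quantile normalization, on the spike-in scale and without the intensity trend.

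PAPSS1 encodes the other PAPS synthase, expressed in most tissues. Its signals were 413.4, 287.1 and 334.5 in controls and 50.5, 106.6 and 148 after 8-Br-cAMP. Every treated array lay below every control, and the lowest signal was on 8-Br-cAMP 1, the array with the actin ratio of 38.8. The log2 signal was 8.41 ± 0.26 in controls and 6.53 ± 0.80 after treatment (SD, n = 3), a difference of -1.88 (SE 0.39, 95% interval -2.80 to -0.96), a signal 3.68-fold higher in controls. It did not pass (adjusted p = 0.0556), nor without the block (0.173), and it passed with any pair left out of the paired fit (adjusted p = 9.51e-05 without pair 1, 0.00599 without pair 2 and 0.00303 without pair 3). The pairs differed by -3.03, -1.43 and -1.18. Without the number 1 arrays the difference was -1.30 (adjusted p = 0.00263, limma without block). In a bulk sample, fewer cells of a kind and less RNA per cell cannot be told apart.

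By its brightest probe set, 203060_s_at, PAPSS2 stood above 0 and PAPSS1 below 0 in each pair, while PAPSS2 203059_s_at differed by -0.017 in pair 2. The difference between both genes within an array does not depend on how that array is scaled as a whole. PAPSS2 203060_s_at minus PAPSS1 was 2.71, 2.43 and 2.42 on the log2 scale in controls and 6.77, 4.83 and 4.52 after 8-Br-cAMP. All treated arrays lay above all controls, with 2.52 ± 0.17 against 5.38 ± 1.22 (SD, n = 3), a difference of 2.86. Each gene alone was already without overlap, in opposite directions, so this separation was given beforehand and adds no support. The contrast was also chosen after its values were seen. The exact two-sided permutation test gave p = 0.1, the smallest that 3 arrays against 3 allow, so it cannot pass 0.05. Only the shift between groups is read, since probe sets of different genes have no common scale. The difference was 2.26 without pair 1, 3.08 without pair 2 and 3.23 without pair 3.

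**Figure D2:**
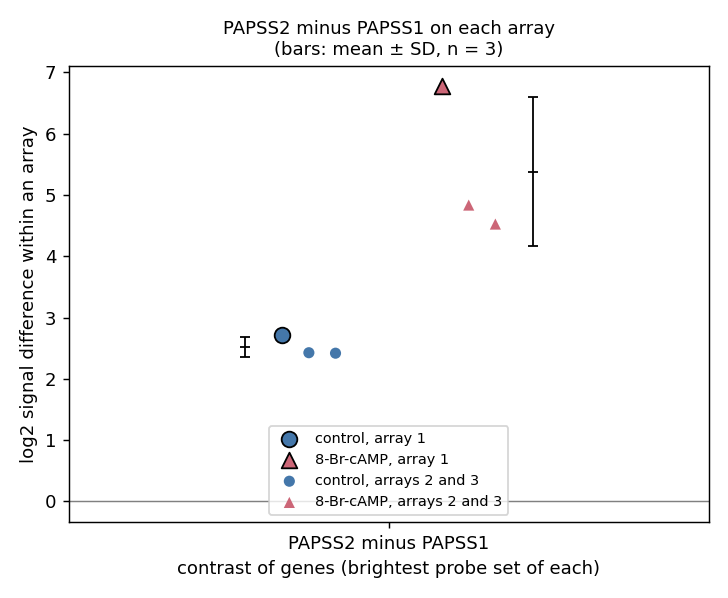
Log2 signal of PAPSS2 (203060_s_at) minus that of PAPSS1 (209043_at) within each array (vertical axis), controls as circles and 8-Br-cAMP as triangles, with the number 1 arrays outlined and bars for the mean ± SD (n = 3). The difference lies at 2.42 to 2.71 in controls and 4.52 to 6.77 after treatment, where 8-Br-cAMP 1 stands above the other treated arrays.

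AKR1C3 encodes 17β-hydroxysteroid dehydrogenase type 5, which reduces androstenedione to testosterone. Its signals were 457, 862.6 and 777.8 in controls and 270.1, 195.9 and 212.8 after 8-Br-cAMP. The groups did not overlap, and here control 1 was the lowest control and 8-Br-cAMP 1 the highest treated array. It fell by 1.59 on the log2 scale (SE 0.30, 95% interval -2.31 to -0.86, adjusted p = 0.0477), from 9.40 ± 0.49 to 7.81 ± 0.24 (SD, n = 3), with pairs at -0.76, -2.14 and -1.87. Without the block the adjusted p was 0.141. With pair 2 or pair 3 left out of the paired fit the call was lost (adjusted p = 0.0863 and 0.0690), and without pair 1 the difference was -2.0. With all pairs the call was also lost with quantile normalization, with a common median and without the intensity trend. AKR1C3 has close relatives, and its probe set may read them: AKR1C1 differed by -1.15 (adjusted p = 0.0513) and AKR1C2 by -0.96 (adjusted p = 0.109), both on probe sets whose names end in _x_at, the maker's mark for probes that can match other transcripts.

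HSD17B4 encodes the peroxisomal D-bifunctional protein, which takes part in fatty acid β-oxidation and can oxidise oestradiol. Its signals were 683.8, 487.1 and 577.6 in controls and 498.5, 836.7 and 872.5 after 8-Br-cAMP. 8-Br-cAMP 2 and 3 lay above all controls and 8-Br-cAMP 1 among them. The log2 difference was 0.31 (95% interval -0.37 to 0.98, adjusted p = 0.580), with -0.46 in pair 1 and 0.78 and 0.60 in pairs 2 and 3, and its sign turned on the spike-in scale (-0.065). Without the number 1 arrays it was 0.69 (adjusted p = 0.00518, limma without block).

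SRD5A1 encodes steroid 5α-reductase type 1, which reduces testosterone and related Δ4 steroids. Its brightest probe set, 204675_at, read 264.6, 239.9 and 242.7 in controls and 247.8, 82.2 and 110.2 after 8-Br-cAMP. Controls were close together (log2 7.96 ± 0.08, n = 3), and 8-Br-cAMP 1 alone among the treated arrays lay in their range. The log2 difference was -0.93 (95% interval -1.70 to -0.16, adjusted p = 0.171), with -0.09 in pair 1 and -1.55 and -1.14 in pairs 2 and 3. Probe set 210959_s_at read 50.6, 178.8 and 175.9 against 10.7, 91.6 and 64, and was lower in each pair (-2.24, -0.96 and -1.46; mean -1.56, adjusted p = 0.0815). The third, 211056_s_at, did not pass the filter, at 23.8, 96 and 75 against 26.7, 12.3 and 46.9. Without the number 1 arrays both tested probe sets were lower (-1.34, adjusted p = 0.00250, and -1.21, adjusted p = 0.00797, limma without block).

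CYP19A1 encodes aromatase, which converts androgens to oestrogens and is best known from ovary, placenta and fat. Its probe set was dim, at 17, 65.2 and 28.8 in controls and 75.8, 69.6 and 92.1 after 8-Br-cAMP. Controls 1 and 3 lay below the filter level and all treated arrays above it, without overlap. The log2 difference was 1.31 (SE 0.51, 95% interval 0.08 to 2.54, adjusted p = 0.212), with 2.16, 0.09 and 1.68 in pairs 1 to 3, so pair 2 hardly differed. A fold from such low signals is imprecise, and the difference was 0.94 with a pseudocount of 16. Without the number 1 arrays it was 0.89 (adjusted p = 0.181, limma without block).

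H6PD encodes hexose-6-phosphate dehydrogenase, which makes NADPH in the lumen of the endoplasmic reticulum and so sets the direction of 11β-hydroxysteroid dehydrogenase type 1. Its brighter probe set, 221892_at, read 291.2, 301.1 and 231.9 in controls and 156.8, 257.9 and 253.6 after 8-Br-cAMP, with 8-Br-cAMP 1 below the rest. The log2 difference was -0.33 (95% interval -0.96 to 0.30, adjusted p = 0.518) and -0.05 without the number 1 arrays (adjusted p = 0.853, limma without block). The second probe set, 206933_s_at, stayed between 3.3 and 19 on all arrays and did not pass the filter.

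**Figure D3:**
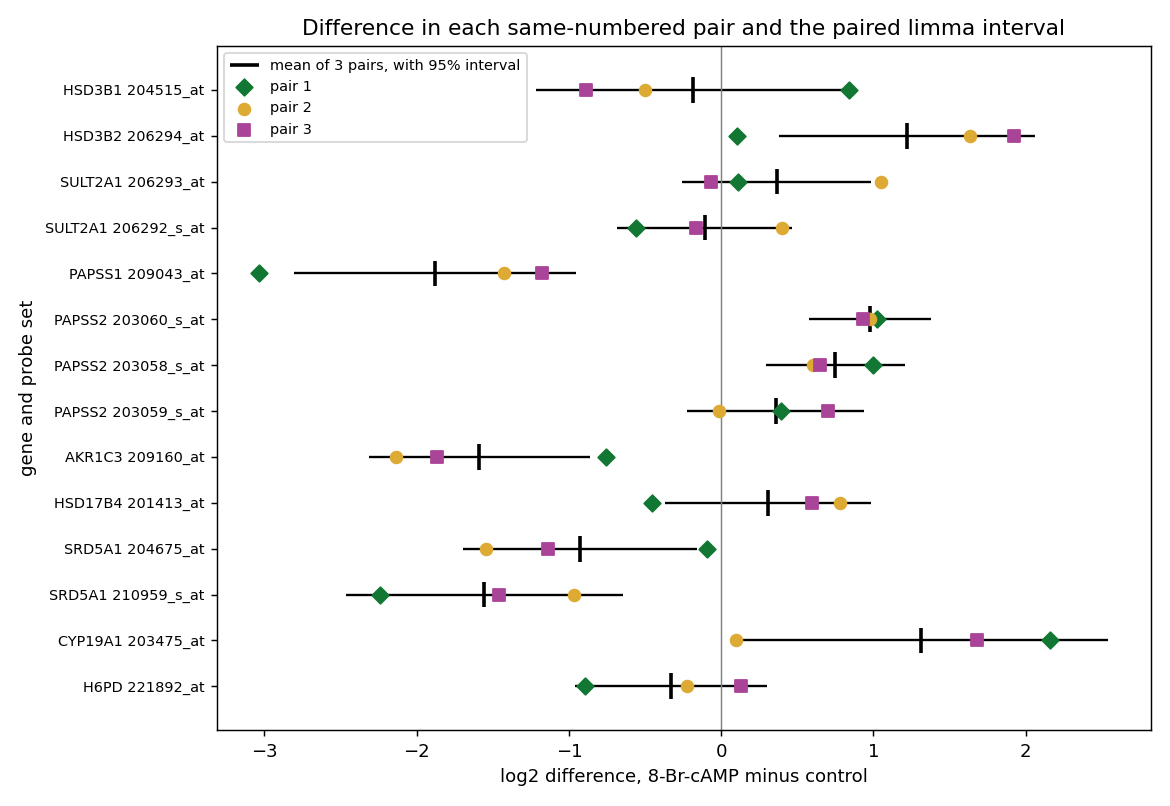
Log2 difference, 8-Br-cAMP minus control, in each same-numbered pair (symbols) for the 14 probe sets that passed the filter, with the mean of 3 pairs and the 95% interval of limma's paired fit (bars). The pairs of PAPSS2 203060_s_at lie close together at 0.93 to 1.03, whereas pair 1 stands apart for HSD3B2, PAPSS1 and AKR1C3.

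The series' design text kept transcripts that changed 2-fold or more at p under 0.05, unadjusted, and this selection was applied with an unmoderated test without block. It held 2 of the 14 probe sets, PAPSS1 and AKR1C3, both lower, against 4.57% of all tested probe sets, with 2.9% lower and 1.67% higher. PAPSS2, at 1.97-fold, lay just under that fold.

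Other genes of the pathway were read from 5 lists with 71 genes, of which 54 had a probe set naming them alone and 36 passed the filter, each taken by its brightest probe set. In the paired fit 5 of the 36 rose and 0 fell, against 3.68% of 7927 genes (1.73% higher, 1.96% lower), and the median log2 difference of the 36 was -0.11, against -0.14 over all genes. Without the number 1 arrays 11 were higher and 8 lower, against 33.3% of all genes (12.8% higher, 20.5% lower).

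Among 15 measured genes of sex steroid enzymes, their partners and receptors, 2 rose, 0 fell and 13 did not pass, with a median of -0.42. CYP17A1, the hydroxylase and lyase that makes DHEA, rose by 1.12 (SE 0.17, adjusted p = 0.0287). Its signals were 4193.1, 1477.8 and 1475.7 in controls and 8027.8, 3562.3 and 3259.5 after 8-Br-cAMP. Control 1 exceeded 8-Br-cAMP 2 and 3, so the groups overlapped, and without the block the adjusted p was 0.499. HSD17B7, a reductase of both oestrone and a cholesterol precursor, rose by 1.01 (adjusted p = 0.0450), with signals of 1870.3, 665.5 and 615.9 in controls and 4083.9, 1149.6 and 1339.9 after 8-Br-cAMP. Its signals too were highest on the number 1 arrays, and its probe set also ends in _x_at.

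Among 6 measured sulfation genes 0 rose and 0 fell, with a median of -0.15. SLC26A2, the sulfate transporter of the cell membrane, read 2067.4, 246.6 and 306.8 in controls and 2937.2, 1089.1 and 1253.2 after 8-Br-cAMP. It differed by 1.56 (SE 0.34, adjusted p = 0.0638), and by 2.09 without the number 1 arrays (adjusted p = 4.81e-05, limma without block). SULT1A1, a phenol sulfotransferase, differed by -0.78 (adjusted p = 0.121) and TPST2, a tyrosylprotein sulfotransferase, by -0.46 (adjusted p = 0.247). Without the number 1 arrays SULT1A1 differed by -1.01 (adjusted p = 0.000766) and TPST2 by -0.46 (0.0984, both limma without block). As in HSD3B2, control 1 of SLC26A2 exceeded 8-Br-cAMP 2 and 3.

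Of the glucuronidation genes 2 were measured and 0 passed. UGDH, which makes the UDP-glucuronic acid donor, differed by 0.83 (adjusted p = 0.204) and UGT2B15 by -0.08 (adjusted p = 0.932). Without the number 1 arrays UGDH differed by 1.29 (adjusted p = 0.000205) and UGT2B15 by -0.24 (0.647, both limma without block). Of 8 measured genes, those of the pentose phosphate path with CYB5R3 and SLC37A4, 0 passed (median -0.16). RPIA had the smallest p (-0.80, adjusted p = 0.259), and it differed by -1.28 without the number 1 arrays (adjusted p = 0.00351, limma without block).

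Of 5 measured genes of cholesterol entry and the mitochondrial steps of steroid synthesis (STAR, CYP11A1, CYP11B1, CYP11B2 and FDX1) 3 rose and 0 fell, with a median of 2.17. CYP11B1, the 11β-hydroxylase, differed by 2.59, CYP11A1, the side-chain cleavage enzyme, by 2.31 and FDX1, their electron donor, by 2.17 (adjusted p between 0.00805 and 0.00901). The log2 difference of HSD3B2 (1.22) and of PAPSS2 (0.98) lay below these in size, and whether they differ was not tested.

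**Figure D4:**
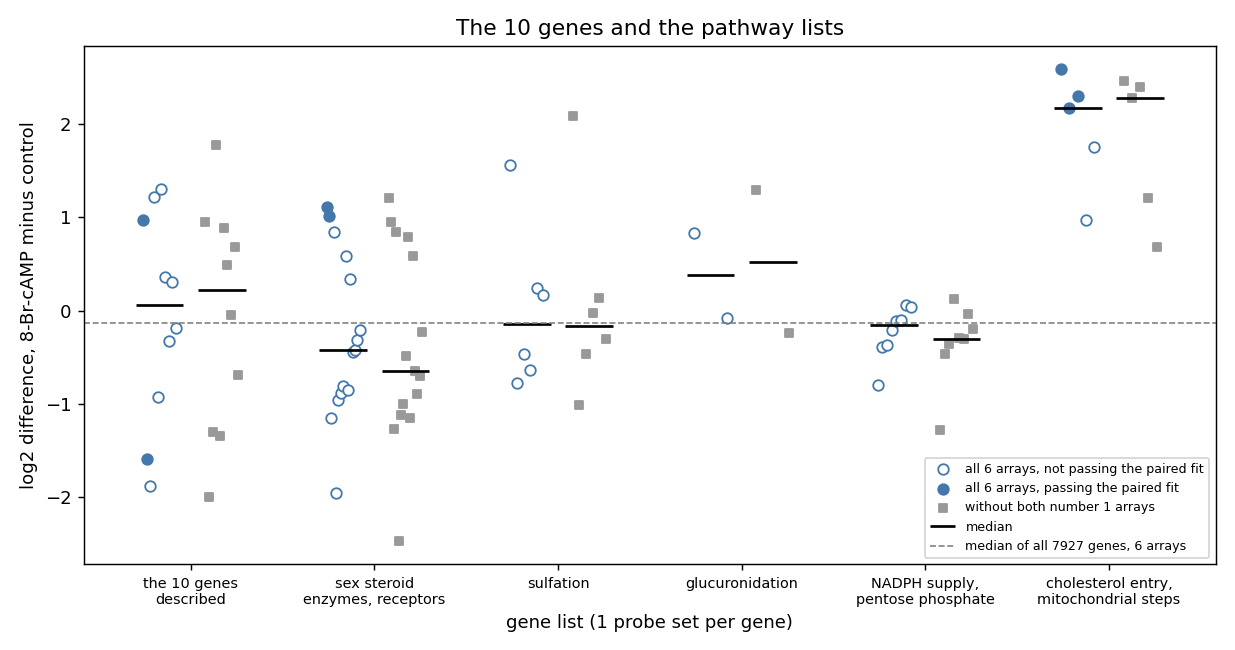
Log2 difference, 8-Br-cAMP minus control, of the 10 genes and of 5 pathway lists, 1 probe set per gene, over all 6 arrays (circles, filled where the paired fit passed) and without both number 1 arrays (squares), with the median of each. The 10 genes spread to both sides of 0, with a median of 0.06, and the genes of cholesterol entry and mitochondrial steps lie above the median of all genes.

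Which genes followed the same pattern over the 6 arrays was described by the Pearson correlation of log2 signals among 7927 genes, given without a p because the arrays share the split by array number. HSD3B2 was closest to CKS2 (0.997), HSD17B12 (0.996) and KIF4A (0.993), and SULT2A1 to LRP5L (0.996), NRTN (0.996) and CD81 (0.993). PAPSS2 was closest to UBAP2L (0.998), THADA (0.994) and MT1G (0.994), and AKR1C3 to TPM1 (0.996), MCCC1 (0.996) and PFKM (0.996).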

How the data were processed

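RNA of 6 NCI-H295A samples was measured on Affymetrix arrays. The authors deposited signal intensity values on a linear scale, 1 per probe set, made with GCOS 1.3 per the labels' protocols, and the target of their scaling is not given in the sources used here. The 2% trimmed means of the 6 columns, 249.996 to 250.155, differed by less than 5%, so no further normalization was applied. Of 22277 rows 62 are array controls. GEO's annotation named 1 gene for 19064 of 22215 probe sets, several for 1043 and none for 2108. Log2 signals of the 13329 probe sets with a mean above the 40th percentile (5.51) were tested two-sided in R 4.3.3 by limma 3.58.1, using lmFit and eBayes with an intensity trend, first without a block. After subtracting group means, control and treated arrays of a number correlated at 0.603, 0.378 and 0.538 for numbers 1 to 3, each above 0.1. Array numbers are thus treated as pairs, on the data and not the labels, and the paired fit takes them as a block. Across numbers, control 3 with treated 2 gave 0.547 and control 2 with treated 3 gave 0.312, so number 1 parts from the others more clearly than 2 from 3. Alternatives were other scalings (quantile, a common median, 18 hybridisation spike-in probe sets), filters, 16 added to every signal, signals raised to a floor (20th percentile), variance models, and arrays or pairs left out. A gene's representative probe set is the brightest. All 10 genes are named, and from each pathway list at most the 3 genes with the smallest paired p. AKR1C2, CYP11B2 and the markers, STAR among them, were named after their values were seen, as was the within-array contrast. The 10 genes and all lists were chosen with earlier results of these data known. Promoter sequences are RefSeq's on GRCh38.p14, a build that the array table does not name.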

Additional observations from a re-analysis of the deposited data

How the results depend on the processing

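Of the 14 tested probe sets of the 10 genes, 0 passed without a block, and that count stayed 0 with quantile normalization, a common median, no filter, the 60th percentile filter, the floor, the pseudocount, both other variance models, the unmoderated test and the spike-in scale, none with a replicate block. Over all probe sets these settings called 0 to 26. The replicate block gave 2, and 2 likewise with no filter, the 60th percentile filter, the floor and robust variances. Spike-in scaling with the block, an alternative added after the data were seen, gave 4 (all lower). With the block the count was 3 with the pseudocount of 16 (521 of all called) and 1 with a common median (142). It was 0 with quantile normalization (337) and without trend (81). A replicate block parting number 1 from numbers 2 and 3, also added after the data were seen, gave 5, against 9.71% of all. In that limma fit PAPSS2 203060_s_at had an adjusted p of 0.00872 and AKR1C3 of 0.0142. The design text's selection gave 2, against 4.57% of all. Leaving out arrays or pairs gave 0 to 8, and 8 arose with both number 1 arrays left out, with or without the block. With both number 1 arrays left out, 4103 of all probe sets (30.8%) were called without the block and 4680 with it. Over 9 alternatives with the block of 3 numbers, PAPSS2 203060_s_at kept its call in 6 (adjusted p 0.0328 to 0.0950) and AKR1C3 in 6 (0.0295 to 0.0923), while PAPSS1 passed in 2 (0.0441 to 0.143). Across the tested probe sets the median log2 difference, -0.13 in the main setting, became -0.03 by quantile scaling, 0.09 by median scaling and -0.50 by spike-in scaling. Signs turned for 5 probe sets, none of them called over all 6 arrays, and the cause was not tested: HSD3B1 (0.12 with quantile normalization, 0.041 with a common median, with or without the block, -1.69 to 0.86 with arrays left out, and 0.17 without pair 3, with or without the block), SULT2A1 206293_at (-0.0076 on the spike-in scale, with or without the block, and -0.24 to 1.06 with arrays left out), SULT2A1 206292_s_at (0.12 with a common median, with or without the block, and -0.50 to 0.51 with arrays left out), PAPSS2 203059_s_at (-0.013 on the spike-in scale, with or without the block, and -0.020 to 0.72 with arrays left out) and HSD17B4 (-0.065 on the spike-in scale, with or without the block). The 95% interval of HSD3B2 (0.38 to 2.06) stands beside pair differences of 0.10, 1.63 and 1.92.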
